A study of Mus musculus with 4 samples.

Results

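The genes of prostaglandin synthesis, breakdown and reception were followed with stranded RNA-seq libraries made from mouse embryonic fibroblasts (MEF) of both Hmga2 genotypes, each without and with TGFB1. They are 8 genes, chosen by name from the 25909 genes that could be named in the expression table: the cyclooxygenases Ptgs1 and Ptgs2, the synthases Ptges and Ptgis, the receptors Ptger2, Ptger4 and Ptgfr, and the catabolic enzyme Hpgd. Each gene is given by its transcript with the longest gene body on the gene's own strand of mm10. The values are RPKM, read numbers corrected for transcript length and for sequencing depth, so that levels can be compared between genes.

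The 4 libraries were 1 each of Hmga2+/+ Ctrl, Hmga2+/+ TGFB1, Hmga2-/- Ctrl and Hmga2-/- TGFB1. The cells were MEF of the C57BL/6 strain from embryos of day 15.5, taken from the trunk without viscera and immortalized, which the study's methods give as done with SV40, so that both genotypes and both treatments carry the immortalization. All were starved overnight in 1% FCS and then kept for 24 h with water, in the Ctrl libraries, or with 10 ng/ml of human recombinant TGFB1. The characteristics field of the knockout libraries spells the genotype Hmga-/- and their titles spell it Hmga2-/-. Because each condition has 1 library, differences have no replicate check, no test across samples could be made and no p-value is given. The study's methods report that sequencing was done in duplicates of 1 experiment, while the table has 1 column per condition. Whether the table's columns pool these duplicates is not stated in the sources used here.

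Depth was even, between 56140000 and 57300000 mapped reads per library. For a transcript of 1000 bases, 3 reads were worth 0.0524 to 0.0534 RPKM. The intervals given beside log2 changes of the members are exact 95% intervals of the ratio of reads and cover counting error only. Hmga2 had 14.8 and 40.7 RPKM in the Hmga2+/+ Ctrl and TGFB1 libraries and 0 reads in both Hmga2-/- libraries. Ccn2, a matricellular protein gene and a standard TGFB1 target, was higher in the TGFB1 library of both genotypes, at 173 against 13.2 RPKM in Hmga2+/+ MEF and 359 against 24.9 RPKM in Hmga2-/- MEF. Of 10 fibroblast markers, 9 or 10 reached 1 RPKM in each library, with summed levels of 2340 to 2930 RPKM carried by Vim, Fn1 and collagen genes. Some of them were lower with TGFB1: Dcn at 2.68 against 7.20 RPKM in Hmga2+/+ MEF and 2.07 against 8.46 in Hmga2-/- MEF, Lum at 0.363 against 1.08 and 0.246 against 0.708, Pdgfra at 11.2 against 24.4 and 15.3 against 27.1, and Col3a1 at 176 against 287 and 141 against 237. Of 5 endothelial markers Kdr and Tek reached 1 RPKM, with summed levels of 3.89 to 8.16 RPKM, while Pecam1 was at most 0.03 RPKM. Summed levels were 2.62 to 5.76 RPKM for 6 epithelial markers, where Krt19 alone reached 1 RPKM, 1.41 to 2.0 RPKM for 7 haematopoietic markers, where Cd68 alone did and Cpa3 was at 0, and 1.27 to 4.49 RPKM for 4 neural and glial markers, where Tubb3 alone did. Tek was lower with TGFB1, at 0.330 against 2.75 RPKM in Hmga2+/+ MEF and 0.686 against 5.65 RPKM in Hmga2-/- MEF. Kdr was higher with TGFB1, at 4.46 against 1.11 and 7.39 against 1.46 RPKM, as was Tubb3, at 2.81 against 0.913 and 4.37 against 0.957 RPKM. Krt19 was higher in Hmga2-/- MEF, at 4.92 and 4.93 RPKM in Ctrl and TGFB1 against 1.90 and 1.92 RPKM in Hmga2+/+ MEF, as Tek was within each treatment. The part of these markers in the results was not tested. Of 4 skeletal muscle markers, Myod1, Myog and Myf5 were at 0 in all 4 libraries.

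Prostaglandins are lipid mediators made from arachidonic acid, which phospholipases free from membranes. The cyclooxygenases turn it into the intermediate PGH2, terminal synthases turn PGH2 into PGE2, prostacyclin and other prostanoids, and these act close to the cell of origin through G protein-coupled receptors until uptake and oxidation end the signal. Ptgs1 is usually the steadily expressed cyclooxygenase and Ptgs2 the inducible one. In fibroblasts PGE2 is known to restrain proliferation and collagen synthesis through receptors that raise cyclic AMP, whereas PGF2α acts through a receptor that raises calcium.

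Under TGFB1 the members moved in both directions, and in each genotype the same 4 of them passed 1.5-fold. Ptgs2 rose 13.0-fold in Hmga2+/+ MEF and 14.0-fold in Hmga2-/- MEF. Ptges, Ptgfr and Hpgd fell in both genotypes, by factors between 1.77 and 4.22, while Ptgs1, Ptgis and Ptger4 stayed within 1.5-fold. Ptger2 was near the limit of detection. A gene was counted when it reached 0.1 RPKM in any library and its RPKM ratio reached 1.5. This low-value filter was passed by 14638 genes and by 7 of the 8 members, with Ptger2 left out. In Hmga2+/+ MEF 1 of 7 members rose, where 13.5% of all genes tested did, and 3 of 7 fell, where 23.7% of all genes did. In Hmga2-/- MEF the counts were again 1 higher and 3 lower, beside 15.0% and 22.0% of all genes. The 7 members had a median log2 change of -0.05 in Hmga2+/+ MEF and of -0.25 in Hmga2-/- MEF. Over all genes tested the medians were -0.09 and -0.03.

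**Figure D1:**
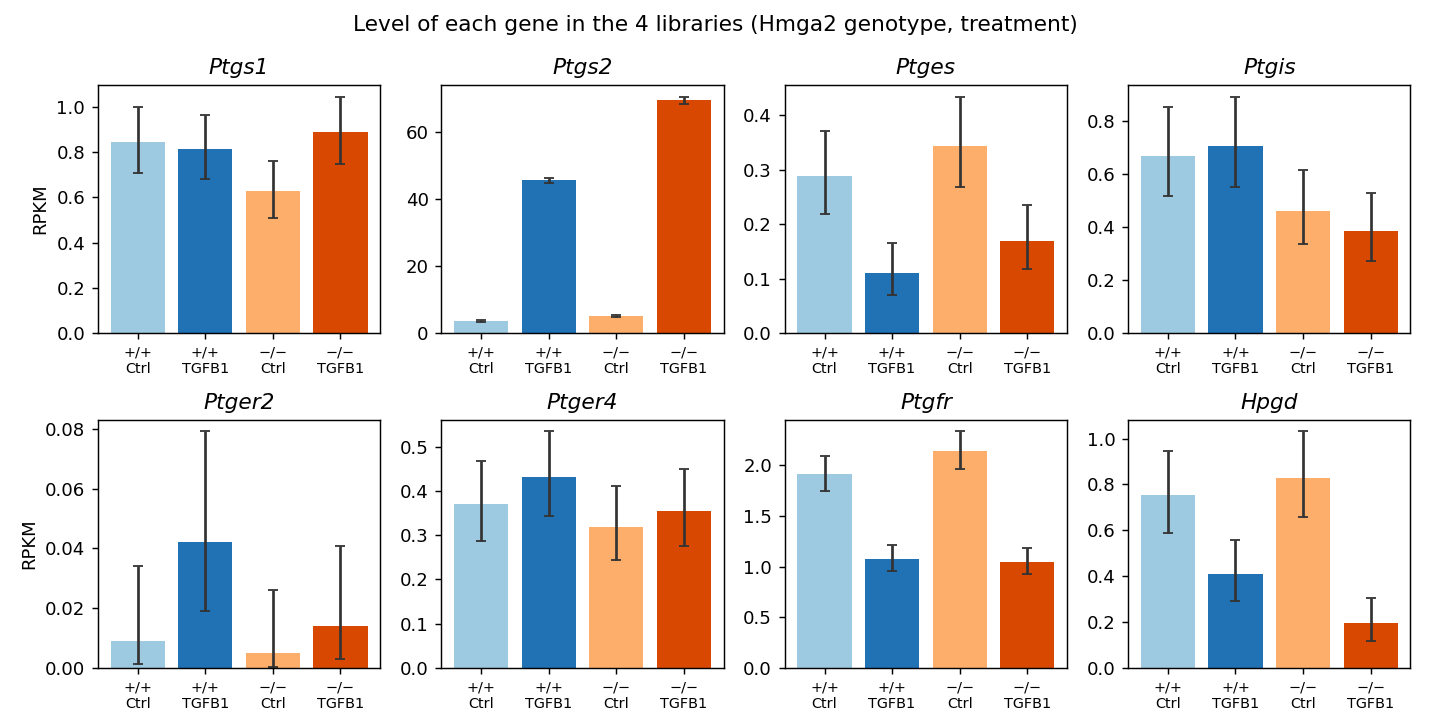
RPKM of each of the 8 genes (vertical axis, linear and from 0, with its own scale in each panel) in the 4 libraries (horizontal axis, Hmga2 genotype and treatment). Bars are single libraries and error bars are exact 95% Poisson intervals of the reads, covering counting error only. Ptgs2 stood at 45.6 and 69.5 RPKM in the TGFB1 libraries against 3.51 and 4.98 in Ctrl, whereas Ptges, Ptgfr and Hpgd were lower in the TGFB1 library of both genotypes.

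The promoters of the 4 genes that moved in both genotypes are shown so that the gene that rose can be set beside the 3 that fell. The sequences are those of RefSeq for GRCm38.p6, from 250 bases before the transcription start to the 30th base of the transcript, read 5′ to 3′ on the strand of the gene. In each case the start is that of the transcript in the expression table. Capitals mark matches, on either strand, to any of 6 short motifs that were searched: the TATA box TATAAA, the GC box GGGCGG, the AP-1 site TGANTCA, the cyclic AMP response element TGACGTCA, the E box CACGTG and the SMAD palindrome GTCTAGAC. 
Ptgs2, chr1:150099781-150100060, plus strand: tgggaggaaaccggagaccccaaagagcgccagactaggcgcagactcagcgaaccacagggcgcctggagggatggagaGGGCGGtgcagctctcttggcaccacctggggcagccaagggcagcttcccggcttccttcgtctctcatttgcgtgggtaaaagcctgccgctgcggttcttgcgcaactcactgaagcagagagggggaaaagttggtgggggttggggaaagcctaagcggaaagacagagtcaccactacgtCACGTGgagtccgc
Hpgd, chr8:56294302-56294581, plus strand: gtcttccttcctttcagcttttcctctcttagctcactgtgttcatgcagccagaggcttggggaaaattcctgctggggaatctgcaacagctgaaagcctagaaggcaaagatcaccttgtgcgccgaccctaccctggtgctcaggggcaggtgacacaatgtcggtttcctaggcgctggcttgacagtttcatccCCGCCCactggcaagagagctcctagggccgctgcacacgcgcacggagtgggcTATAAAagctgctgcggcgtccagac
Ptges, chr2:30903268-30903547, minus strand: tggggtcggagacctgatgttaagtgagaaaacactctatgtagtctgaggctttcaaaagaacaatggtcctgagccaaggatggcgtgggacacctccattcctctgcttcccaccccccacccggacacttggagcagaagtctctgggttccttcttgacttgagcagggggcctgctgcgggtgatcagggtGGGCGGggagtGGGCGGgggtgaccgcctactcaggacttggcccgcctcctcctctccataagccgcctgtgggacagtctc
Ptgfr, chr3:151837499-151837778, minus strand: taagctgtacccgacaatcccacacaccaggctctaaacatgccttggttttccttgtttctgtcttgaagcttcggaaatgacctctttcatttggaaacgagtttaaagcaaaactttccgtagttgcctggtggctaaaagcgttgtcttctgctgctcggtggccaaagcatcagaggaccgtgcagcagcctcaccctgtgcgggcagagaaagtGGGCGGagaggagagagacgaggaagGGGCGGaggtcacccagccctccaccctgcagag

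All 4 of these promoters held a GC box, which 35.7% of the 32851 promoters of the reference set hold in their 300 bases. Counting the first base of the transcript as 1 and the base before it as -1, the box began at -170 in Ptgs2, at -50 in Hpgd, at -53 and -42 in Ptges and at -30 and -4 in Ptgfr. Ptgs2 also held the E box at 17, found in 7.15% of promoters, and Hpgd the letters of the TATA box at 5, found in 13.6%. No match to the AP-1 site (7.81% of promoters), the cyclic AMP response element (1.79%) or the SMAD palindrome (0.213%) lay in any of the 7 members' windows that could be read. Of the other members, Ptger4 had the GC box at -148, -143, -95 and -42, and Ptgs1 and Ptger2 had none of the 6 motifs. Ptgis had no entry in the promoter table. Only the full letters given above were searched, so shorter or variant forms of these elements were not looked for. A match describes letters and is not a measured binding site.

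Ptgs1 encodes the cyclooxygenase present in most tissues. Its transcript of 2845 bases (chr2:36230426-36252271, plus strand) had 0.845 RPKM in Hmga2+/+ Ctrl, 0.816 in Hmga2+/+ TGFB1, 0.627 in Hmga2-/- Ctrl and 0.889 in Hmga2-/- TGFB1, from 101 to 144 reads. The Hmga2-/- Ctrl library was the lowest and the other 3 lay close together. Its log2 change under TGFB1 was -0.05 (interval -0.41 to 0.31) in Hmga2+/+ MEF and 0.50 (0.13 to 0.88) in Hmga2-/- MEF, neither past 1.5-fold. The difference between these changes was 0.55 (0.03 to 1.08), a factor of 1.47.

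Ptgs2, the inducible cyclooxygenase, was the most abundant member in every library. Its transcript of 4441 bases (chr1:150100031-150108234, plus strand) had 3.51 RPKM in Hmga2+/+ Ctrl, 45.6 in Hmga2+/+ TGFB1, 4.98 in Hmga2-/- Ctrl and 69.5 in Hmga2-/- TGFB1. Both TGFB1 libraries lay far above both Ctrl libraries, and within each treatment the Hmga2-/- library was the higher. The reads behind these levels were 875, 11602, 1251 and 17580. The log2 change under TGFB1 was 3.70 (interval 3.60 to 3.80) in Hmga2+/+ MEF and 3.80 (3.72 to 3.89) in Hmga2-/- MEF. The difference between the genotypes' changes was 0.10 (-0.02 to 0.23), an interval that includes 0. Among genes tested, Ptgs2 moved from the 45.1st to the 95.1st percentile of level in Hmga2+/+ MEF and from the 54.2nd to the 97.1st in Hmga2-/- MEF. Of 10277 genes that reached 1 RPKM in both libraries of Hmga2+/+ MEF 6 had a larger rise, and of 10256 such genes in Hmga2-/- MEF 8 did.

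With Ptgs1 within 1.5-fold, the ratio of the 2 cyclooxygenase transcripts shifted. Ptgs2 RPKM was 4.15 times that of Ptgs1 in Hmga2+/+ Ctrl and 55.9 times in Hmga2+/+ TGFB1. In Hmga2-/- MEF the ratio was 7.94 in Ctrl and 78.2 under TGFB1. Both enzymes make the same intermediate, so the ratio gives the make-up of the cyclooxygenase transcripts and not of enzyme activity, which was not measured.

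Ptgs2 has annotated transcripts on the opposite strand nearby, which were looked up after its values had been seen. Ptgs2os starts 0.2 kb upstream of the Ptgs2 start on the minus strand (chr1:150074873-150099874) and runs away from it. It had 0.370 RPKM in Hmga2+/+ Ctrl, 1.08 in Hmga2+/+ TGFB1, 0.444 in Hmga2-/- Ctrl and 1.02 in Hmga2-/- TGFB1, log2 changes of 1.54 and 1.21. Ptgs2os2, whose start lies 64.9 kb downstream on the minus strand (chr1:150159043-150164948), had 1.45, 5.22, 1.58 and 4.98 RPKM in the same order of libraries, log2 changes of 1.85 and 1.65. These 2 transcripts rose with TGFB1 in both genotypes, by less than Ptgs2. Further out, Odr4 had 14.4 to 15.4 RPKM and Tpr 75.4 to 91.3 RPKM over the 4 libraries, and neither passed 1.5-fold.

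Ptges encodes the inducible microsomal synthase that converts PGH2 to PGE2, the enzyme usually paired with Ptgs2. Its transcript of 3642 bases (chr2:30889471-30903297, minus strand) had 0.289 RPKM in Hmga2+/+ Ctrl, 0.110 in Hmga2+/+ TGFB1, 0.344 in Hmga2-/- Ctrl and 0.169 in Hmga2-/- TGFB1. Both TGFB1 libraries were below both Ctrl libraries, the opposite direction to Ptgs2. These levels rest on 59, 23, 71 and 35 reads. The fall was 2.63-fold in Hmga2+/+ MEF (log2 -1.39, interval -2.15 to -0.67) and 2.04-fold in Hmga2-/- MEF (log2 -1.03, -1.66 to -0.43). The changes of the genotypes differed by 0.37 (-0.61 to 1.35). The RPKM of Ptgs2 over that of Ptges accordingly went from 12.1 to 414 in Hmga2+/+ MEF and from 14.5 to 411 in Hmga2-/- MEF.

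Ptgis, prostacyclin synthase, stayed within 1.5-fold under TGFB1 in both genotypes. Its transcript of 1732 bases (chr2:167203196-167240537, minus strand) had 0.668 RPKM in Hmga2+/+ Ctrl, 0.705 in Hmga2+/+ TGFB1, 0.459 in Hmga2-/- Ctrl and 0.385 in Hmga2-/- TGFB1, from 38 to 70 reads. The levels were ordered by genotype and not by treatment: both Hmga2-/- libraries lay below both Hmga2+/+ libraries. In Ctrl the genotype difference did not reach 1.5-fold, and its counting interval, -1.12 to 0.03 on the log2 scale, includes 0. The log2 changes under TGFB1 were 0.08 (interval -0.43 to 0.59) and -0.25 (-0.91 to 0.40).

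Ptgfr, the receptor of PGF2α, was the most abundant receptor among the members and fell under TGFB1. Its transcript of 4409 bases (chr3:151798610-151837528, minus strand) had 1.91 RPKM in Hmga2+/+ Ctrl, 1.08 in Hmga2+/+ TGFB1, 2.14 in Hmga2-/- Ctrl and 1.05 in Hmga2-/- TGFB1, from 263 to 535 reads. Both Ctrl libraries were high and both TGFB1 libraries low, with little distance between the genotypes. The fall was 1.77-fold in Hmga2+/+ MEF (log2 -0.83, interval -1.05 to -0.61) and 2.04-fold in Hmga2-/- MEF (log2 -1.03, -1.25 to -0.82), with a difference of -0.20 (-0.52 to 0.11) between them. A second transcript, of 4266 bases and starting further downstream, had 1.92, 1.07, 2.09 and 1.04 RPKM in the same order. The 2 transcripts overlap and their reads cannot be treated as independent.

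Ptger4, a PGE2 receptor that raises cyclic AMP, stayed within 1.5-fold. Its transcript of 3322 bases (chr15:5233399-5244187, minus strand) had 0.370 RPKM in Hmga2+/+ Ctrl, 0.431 in Hmga2+/+ TGFB1, 0.319 in Hmga2-/- Ctrl and 0.354 in Hmga2-/- TGFB1, from 60 to 82 reads. Its log2 changes under TGFB1 were 0.22 (interval -0.26 to 0.70) and 0.15 (-0.37 to 0.68), and a second transcript of 3259 bases lay between 0.325 and 0.439 RPKM. All of its intervals include 0.

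Ptger2, the other PGE2 receptor that raises cyclic AMP, was barely detected. Its transcript of 3765 bases (chr14:44988111-45003820, plus strand) had 0.009 RPKM in Hmga2+/+ Ctrl, 0.042 in Hmga2+/+ TGFB1, 0.005 in Hmga2-/- Ctrl and 0.014 in Hmga2-/- TGFB1, from 2, 9, 1 and 3 reads. The Hmga2+/+ TGFB1 library alone exceeded 3 reads. The log2 ratio of the Hmga2+/+ libraries was 2.22, with an interval of -0.13 to 5.39 that includes 0, and no ratio is given for the Hmga2-/- libraries, both at or under 3 reads. The antisense gene Gm17173, on the opposite strand over the whole of Ptger2, had 0.012, 0.134, 0 and 0.025 RPKM in the same order. Its part in the Ptger2 reads was not tested.

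Hpgd encodes the dehydrogenase that begins the inactivation of PGE2 and PGF2α. Its transcript of 1706 bases (chr8:56294552-56321046, plus strand) had 0.752 RPKM in Hmga2+/+ Ctrl, 0.409 in Hmga2+/+ TGFB1, 0.828 in Hmga2-/- Ctrl and 0.196 in Hmga2-/- TGFB1. The Ctrl libraries were close to each other, both TGFB1 libraries were lower, and the Hmga2-/- TGFB1 library was the lowest of the 4. The levels rest on 72, 40, 80 and 19 reads. The fall was 1.84-fold in Hmga2+/+ MEF (log2 -0.88, interval -1.47 to -0.30) and 4.22-fold in Hmga2-/- MEF (log2 -2.08, -2.89 to -1.35). The difference of the log2 changes was -1.20 (-2.20 to -0.23), a factor of 2.30, so that Hpgd was the 1 member of 7 whose TGFB1 response differed at least 1.5-fold between the genotypes, beside 16.2% of all genes tested. With a pseudocount of 1 RPKM the difference was -0.30 and no longer past 1.5-fold. Its counting interval excludes 0, and the spread between cultures is unknown. The gene Gm45540 overlaps 3606 bases of Hpgd on the same strand.

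**Figure D2:**
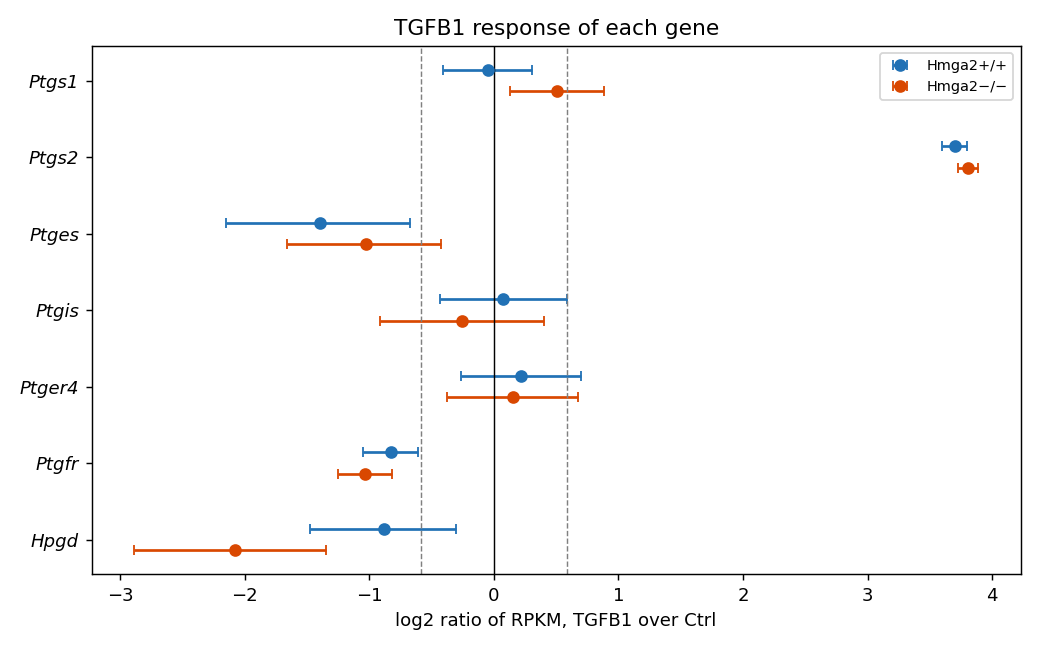
Log2 ratio of RPKM, TGFB1 over Ctrl (horizontal axis), for the 7 members that pass the low-value filter (vertical axis), in Hmga2+/+ (blue) and Hmga2-/- MEF (orange). Points are single ratios, bars are exact 95% counting intervals and dashed lines mark 1.5-fold. Ptgs2 lay at 3.70 and 3.80, Ptges, Ptgfr and Hpgd lay left of the lower dashed line in both genotypes, and the genotypes were furthest apart for Hpgd.

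The RPKM ratio of the cyclooxygenase transcript Ptgs2 to the catabolic transcript Hpgd therefore changed by more than the level of either. Enzyme levels and activities were not measured. Ptgs2 RPKM was 4.67 times Hpgd RPKM in Hmga2+/+ Ctrl, 112 times in Hmga2+/+ TGFB1, 6.01 times in Hmga2-/- Ctrl and 355 times in Hmga2-/- TGFB1. In the 2 TGFB1 libraries the members had the same order of level, Ptgs2 followed by Ptgfr, Ptgs1, Ptgis, Ptger4, Hpgd, Ptges and Ptger2. The order of some neighbours is not resolved, since their counting intervals overlapped: those of Ptgfr and Ptgs1, Ptgs1 and Ptgis, Ptger4 and Hpgd, and Ptges and Ptger2 in Hmga2+/+ TGFB1, and those of Ptgfr and Ptgs1, Ptgis and Ptger4, Ptger4 and Hpgd, and Hpgd and Ptges in Hmga2-/- TGFB1. In Hmga2+/+ Ctrl the order was Ptgs2, Ptgfr, Ptgs1, Hpgd, Ptgis, Ptger4, Ptges and Ptger2, where the counting intervals of Ptgs1, Hpgd and Ptgis overlapped, as did those of Ptger4 and Ptges. In Hmga2-/- Ctrl Hpgd stood before Ptgs1, and Ptges before Ptger4, with overlapping intervals in both pairs. These values come from bulk RNA, in which fewer cells that express a gene and less RNA per cell cannot be told apart.

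The genotypes were next compared within each treatment. No member differed 1.5-fold between the Hmga2-/- and Hmga2+/+ Ctrl libraries, in which 6.52% of all genes tested were higher and 7.12% lower in Hmga2-/- MEF. The largest log2 differences there were -0.54 for Ptgis (interval -1.12 to 0.03) and 0.50 for Ptgs2 (0.38 to 0.63), the latter a factor of 1.42. Ptgs1 was lower by 0.43 on the log2 scale (-0.82 to -0.05), and the intervals of Ptges, Ptger4, Ptgfr and Hpgd included 0. The median over the 7 members was 0.14, against -0.02 over all genes.

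Under TGFB1, Ptgs2 and Ptges were at least 1.5-fold higher and Hpgd and Ptgis at least 1.5-fold lower in Hmga2-/- than in Hmga2+/+ MEF. These are 2 of 7 members higher, beside 8.29% of all genes, and 2 of 7 lower, beside 7.01%. Ptgs2 was 1.52-fold higher (log2 0.61, interval 0.57 to 0.64), and it dropped under 1.5-fold when libraries were rescaled by their median ratio. The 1.54-fold higher level of Ptges had an interval of -0.19 to 1.44 on the log2 scale, which includes 0. Hpgd was 2.09-fold lower (log2 -1.06, -1.94 to -0.24) and Ptgis 1.83-fold lower (log2 -0.87, -1.48 to -0.28). Ptgs1, Ptger4 and Ptgfr had log2 differences of 0.12, -0.28 and -0.04, all with intervals that include 0. The median over the members was -0.04, against 0.03 over all genes. This comparison and the TGFB1 responses share libraries and are not independent of each other.

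**Figure D3:**
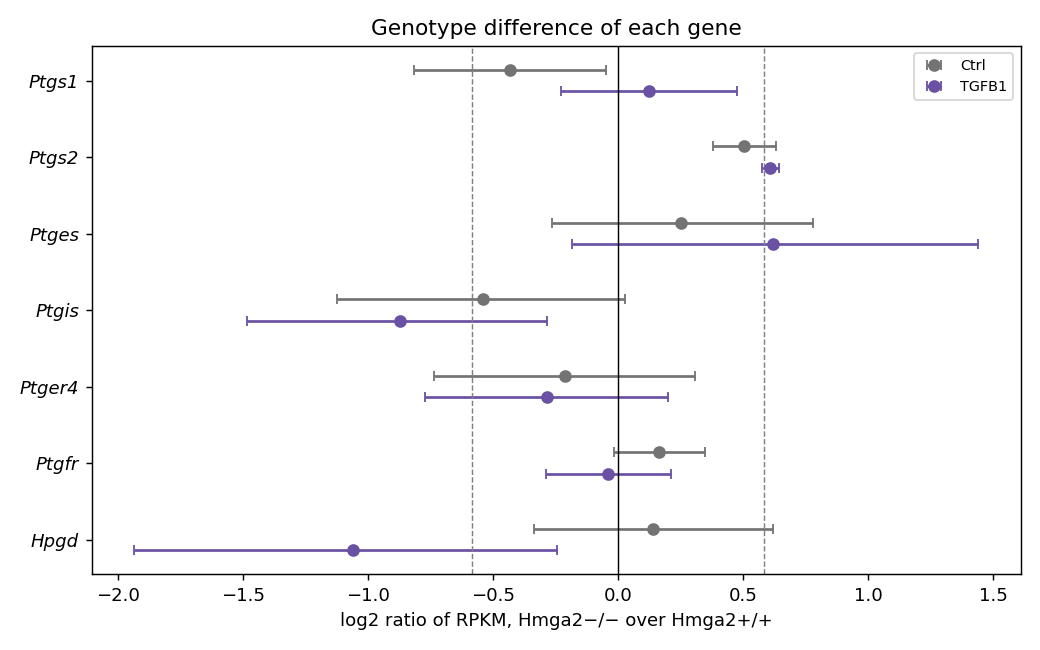
Log2 ratio of RPKM, Hmga2-/- over Hmga2+/+ (horizontal axis), for the 7 members that pass the low-value filter (vertical axis), in Ctrl (grey) and under TGFB1 (purple). Points are single ratios, bars are exact 95% counting intervals and dashed lines mark 1.5-fold. Ctrl points lie between the dashed lines, and under TGFB1 Hpgd (-1.06) and Ptgis (-0.87) lie below and Ptges (0.62) and Ptgs2 (0.61) just above them.

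Other genes of the pathway were read from a list of 33 that covers arachidonate release, terminal synthases, reductases and transport, and further receptors with a receptor regulator. Of these 22 passed the low-value filter. In Hmga2+/+ MEF 6 of the 22 rose and 5 fell under TGFB1, and in Hmga2-/- MEF 4 rose and 7 fell, to be read beside the shares of all genes given above. Mgll and Ptger3 reached 0.1 RPKM only in TGFB1 libraries, so that the filter admitted them through the level being compared. Without these 2, of 20 genes 4 rose and 5 fell in Hmga2+/+ MEF, and 3 rose and 6 fell in Hmga2-/- MEF. The shares of all genes keep genes admitted in this way, so counts of the 20 have no matched share. The median log2 change of the 22 was 0.23 in Hmga2+/+ MEF and -0.21 in Hmga2-/- MEF. Between genotypes 2 of 22 were higher and 0 lower in Hmga2-/- Ctrl, beside 6.52% and 7.12% of all genes. Under TGFB1 3 were higher and 1 lower in Hmga2-/- MEF, beside 8.29% and 7.01%. Without Mgll and Ptger3, of 20 genes 1 was higher in Ctrl and 2 under TGFB1, and 0 were lower in either. The TGFB1 response differed 1.5-fold between the genotypes for 3 of the 22, beside 16.2% of all genes. They were Mgll, Pla2g2e and Ptger3, whose counting intervals for the difference all include 0.

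Of the genes that free arachidonate, 7 of 12 passed the filter. In Hmga2+/+ MEF 3 of the 7 rose and 0 fell, and in Hmga2-/- MEF 2 rose and 1 fell. Of all genes 13.5% and 15.0% rose and 23.7% and 22.0% fell. The rises of both genotypes include Mgll, which the filter admitted only through its TGFB1 libraries. Pla2g4a, the cytosolic phospholipase A2 that is the usual source of arachidonate for cyclooxygenases, had the highest level and is named here although it lay outside the rule for names: 29.3 RPKM in Hmga2+/+ Ctrl, 35.1 in Hmga2+/+ TGFB1, 31.2 in Hmga2-/- Ctrl and 36.9 in Hmga2-/- TGFB1. It lies 138.7 kb upstream of Ptgs2 and did not pass 1.5-fold. Pla2g2e, a secreted phospholipase A2, had 0.296, 1.47, 0.357 and 2.77 RPKM in the same order and rose 4.97-fold (log2 2.31, interval 1.47 to 3.25) and 7.77-fold (log2 2.96, 2.23 to 3.78). Under TGFB1 it was 1.88-fold higher in Hmga2-/- than in Hmga2+/+ MEF.

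Mgll, the lipase that hydrolyses monoacylglycerols and can yield arachidonate, was chosen after its values were seen, since it stayed under 1 RPKM. It had 0.034 RPKM in Hmga2+/+ Ctrl, 0.462 in Hmga2+/+ TGFB1, 0.043 in Hmga2-/- Ctrl and 0.926 in Hmga2-/- TGFB1, from 7, 97, 9 and 193 reads. Both TGFB1 libraries stood far above both Ctrl libraries, with rises of 13.6-fold (log2 3.76, interval 2.67 to 5.12) and 21.5-fold (log2 4.43, 3.46 to 5.56). Pla2g12a, another secreted phospholipase, rose in Hmga2+/+ MEF, from 2.30 to 3.47 RPKM (log2 0.59), and went from 2.26 to 3.25 RPKM in Hmga2-/- MEF (log2 0.53), just under 1.5-fold. Pla2g4b fell in Hmga2-/- MEF from 1.34 to 0.809 RPKM (log2 -0.72), and went from 1.41 to 0.939 RPKM in Hmga2+/+ MEF (log2 -0.58). It is covered on the same strand by the readthrough gene Gm28042, which had 0.837 to 1.43 RPKM, so that its reads are uncertain. Pla2g2a, Pla2g2d, Pla2g5 and Pla2g10 had 0 reads in all 4 libraries.

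Of the other terminal synthases, 5 of 8 passed the filter, and in each genotype 1 rose and 1 fell. The shares of all genes were 13.5% and 15.0% higher and 23.7% and 22.0% lower in Hmga2+/+ and Hmga2-/- MEF. Ptges2, a second membrane-associated PGE synthase, had 2.16 RPKM in Hmga2+/+ Ctrl, 3.46 in Hmga2+/+ TGFB1, 2.51 in Hmga2-/- Ctrl and 2.96 in Hmga2-/- TGFB1. It rose 1.60-fold in Hmga2+/+ MEF (log2 0.68, interval 0.44 to 0.92), and its log2 change in Hmga2-/- MEF was 0.24, a difference of -0.44 (-0.78 to -0.10). Ptges3, the cytosolic PGE synthase that is also the Hsp90 cochaperone p23, lay outside the rule for names and is given for its level, 49.9, 74.0, 57.6 and 73.6 RPKM in the same order, with changes under 1.5-fold. Ptges, which fell, had the lowest level of the 3 PGE synthase transcripts in every library. Ptges3 has processed pseudogenes that could share its reads, and its level is uncertain to that extent. Akr1b3, an aldose reductase with PGF synthase activity, had 3.79, 5.29, 4.52 and 7.07 RPKM and rose in Hmga2-/- MEF (log2 0.65), with 0.48 in Hmga2+/+ MEF. It shares sequence with related aldo-keto reductases, among them Akr1b8, and the split of reads between them is uncertain. Fam213b, also a PGF synthase, was chosen after its values were seen, as the synthase that fell in both genotypes: it had 0.461, 0.158, 0.549 and 0.227 RPKM (log2 -1.54, interval -3.03 to -0.24, and -1.27, -2.50 to -0.15).

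Of 6 genes for reduction and transport of prostaglandins, 2 fell in Hmga2+/+ MEF and 3 in Hmga2-/- MEF, and none rose, beside 23.7% and 22.0% of all genes lower and 13.5% and 15.0% higher. Cbr1, a carbonyl reductase that can turn PGE2 into PGF2α, had 13.1 RPKM in Hmga2+/+ Ctrl, 6.07 in Hmga2+/+ TGFB1, 12.8 in Hmga2-/- Ctrl and 5.83 in Hmga2-/- TGFB1, falls of 2.16-fold and 2.20-fold. Ptgr1, which reduces the keto products that Hpgd makes, had 5.65, 2.77, 5.37 and 2.92 RPKM, falls of 2.04-fold and 1.84-fold. Both are breakdown or conversion enzymes downstream of synthesis, and for both the genotypes' changes differed by less than 0.2 on the log2 scale, with intervals that include 0. Slco2a1, the prostaglandin transporter that imports prostaglandins for oxidation, fell in Hmga2-/- MEF from 2.09 to 1.27 RPKM (log2 -0.72) and went from 1.66 to 1.39 RPKM in Hmga2+/+ MEF (log2 -0.26), a difference of -0.46 (-0.80 to -0.12). Its call depends on the transcript. The one of highest mean level had 2.62, 3.09, 3.96 and 2.65 RPKM in the order Hmga2+/+ Ctrl, Hmga2+/+ TGFB1, Hmga2-/- Ctrl and Hmga2-/- TGFB1. By this transcript the log2 change in Hmga2+/+ MEF was 0.24, the opposite direction. In Hmga2-/- MEF it was -0.58, just short of 1.5-fold. The difference of these changes was -0.82 and the genotype difference in Ctrl 0.60, both past 1.5-fold. Slco3a1, a carrier of the same family, passed 1.5-fold between genotypes and not between treatments: it was 1.55-fold higher in Hmga2-/- MEF in Ctrl (2.72 against 1.75 RPKM) and again under TGFB1 (2.36 against 1.52 RPKM). By its transcript of highest mean level the log2 differences were 0.55 in Ctrl, short of 1.5-fold, and 0.59 under TGFB1, and with a pseudocount of 1 RPKM the Ctrl difference also fell short.

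Among the other receptors, Ptgir fell together with the member Ptgfr. Ptgir, the prostacyclin receptor, had 1.24 RPKM in Hmga2+/+ Ctrl, 0.362 in Hmga2+/+ TGFB1, 1.26 in Hmga2-/- Ctrl and 0.380 in Hmga2-/- TGFB1, falls of 3.41-fold (log2 -1.77, interval -2.18 to -1.38) and 3.31-fold (log2 -1.73, -2.13 to -1.34). Ptger1, a PGE2 receptor that raises calcium, had 1.53, 0.924, 1.28 and 0.949 RPKM and fell in Hmga2+/+ MEF (log2 -0.72), with -0.43 in Hmga2-/- MEF. The level of Ptger1 is uncertain. Ptger3, the PGE2 receptor that lowers cyclic AMP, passed the filter with 15 reads in Hmga2+/+ TGFB1 and had 4 to 8 reads elsewhere. It counts above as a rise in Hmga2+/+ and a fall in Hmga2-/- MEF on these few reads, and Ptgdr had 0 reads in all 4 libraries. Ptgfrn, a membrane protein known as a negative regulator of the PGF2α receptor, rose where Ptgfr fell, from 5.85 to 10.5 RPKM in Hmga2+/+ MEF (log2 0.85, interval 0.77 to 0.93) and from 5.74 to 12.2 RPKM in Hmga2-/- MEF (log2 1.09, 1.01 to 1.17).

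Summed over the 9 prostanoid receptors of the lists, 3 of them members, the receptor level was 5.20 RPKM in Hmga2+/+ Ctrl, 3.0 in Hmga2+/+ TGFB1, 5.14 in Hmga2-/- Ctrl and 2.82 in Hmga2-/- TGFB1. Ptgfr made up 36.8%, 35.9%, 41.7% and 37.1% of that sum and was the first in every library. Ptger4 made up 7.12% and 14.4% in Hmga2+/+ Ctrl and TGFB1, and 6.21% and 12.5% in Hmga2-/- Ctrl and TGFB1, while Ptgir went from 23.8% to 12.1% and from 24.5% to 13.5%. The share of Ptger4 was thus larger in both TGFB1 libraries, with its own level within 1.5-fold. Leaving out Ptger1, whose level is uncertain, the sums were 3.67, 2.08, 3.85 and 1.87 RPKM and Ptger4 made up 10.1%, 20.8%, 8.28% and 18.9% of them.

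**Figure D4:**
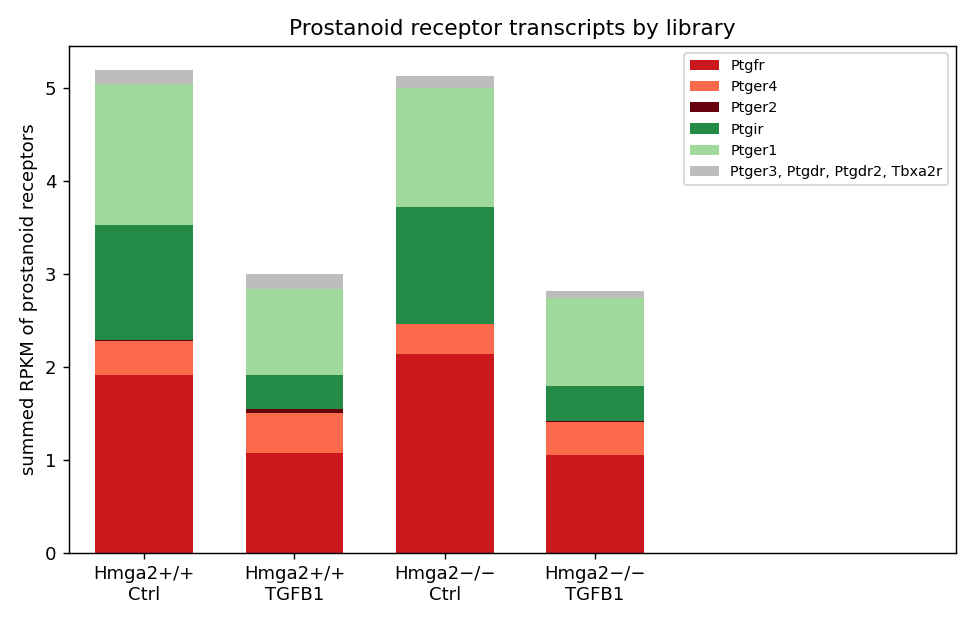
Summed RPKM of the 9 prostanoid receptors (vertical axis, linear and from 0) in each library (horizontal axis), stacked by receptor. The sums were 5.20 and 5.14 RPKM in the Ctrl libraries and 3.0 and 2.82 RPKM in the TGFB1 libraries, and the Ptgfr and Ptgir segments were shorter under TGFB1 while that of Ptger4 was about as tall.

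Set against all genes, the TGFB1 responses of the 2 genotypes can be read side by side. Ptgs2 and Pla2g2e lay at the upper right, with log2 changes of at least 2.31 in both genotypes. Mgll lay there too, but the filter admitted it only through its TGFB1 libraries and it was chosen after its values were seen. Ptges, Ptgfr, Ptgir, Cbr1, Ptgr1 and Hpgd lay at the lower left. Ptgs1 and Ptgis had changes of opposite sign in the genotypes, none of them past 1.5-fold.

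**Figure D5:**
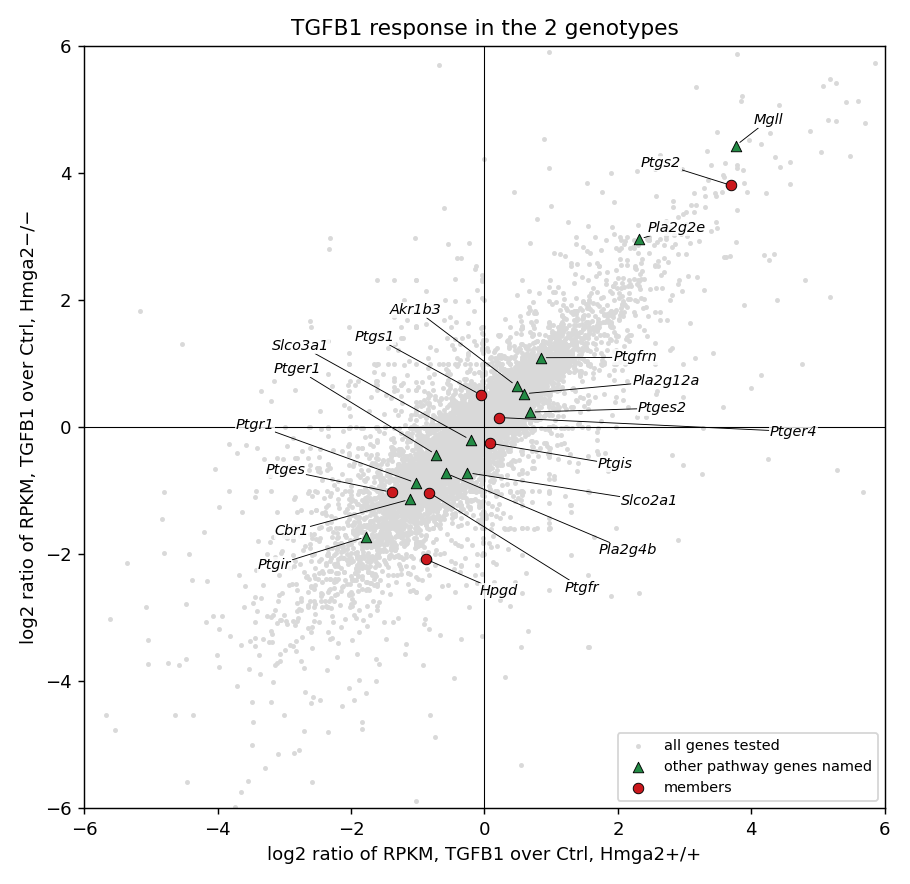
Log2 ratio of RPKM, TGFB1 over Ctrl, in Hmga2+/+ MEF (horizontal axis) and in Hmga2-/- MEF (vertical axis), with 1 grey point per gene tested. Red circles are members, and green triangles are the pathway genes named by the rule and Mgll. Mgll was chosen after its values were seen, and Fam213b, which fell in both genotypes, is not marked. Of 14638 genes 505 lie outside the axes, which end at 6 in each direction. Ptgs2 sits at the upper right (3.70 and 3.80) and Hpgd at the lower left (-0.88 and -2.08).

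The genes whose pattern over the 4 libraries was nearest to that of the 3 members of widest range were found by Euclidean distance of log2(RPKM + 0.1) after centring each gene on its mean, among the 11372 genes that reached 1 RPKM in any library. For Ptgs2, with a range of 4.31 on the log2 scale, they were the chemokine gene Ccl20 (distance 0.31), the transcription factor gene Prdm1 (0.32) and the protease gene Prss46 (0.43). All 3 were at or under 0.022 RPKM in both Ctrl libraries, where the added 0.1 RPKM sets their value and so their range, and they reached 1 RPKM only in the TGFB1 libraries, so that their ranges are not measured as that of Ptgs2 is. Ccl20 had 0, 1.34, 0.022 and 2.03 RPKM in the order Hmga2+/+ Ctrl, Hmga2+/+ TGFB1, Hmga2-/- Ctrl and Hmga2-/- TGFB1. For Hpgd, with a range of 2.08, they were G630016G05Rik (0.11), Tgtp2 (0.13) and the dehydrogenase gene Dhrs9 (0.16), which had 3.56, 1.93, 3.34 and 1.14 RPKM. For Ptges, with a range of 1.64, they were Pcdhb19 (0.05), L3mbtl3 (0.07) and Cpne2 (0.08). The ranges are of log2 RPKM without the added 0.1, which narrows the differences of Hpgd and Ptges in these distances. With 0.1 RPKM added, the TGFB1 log2 change of Ptges in Hmga2+/+ MEF was -0.89, against -1.39 without it. That of Hpgd in Hmga2-/- MEF was -1.65, against -2.08. The small distances are therefore to the narrowed patterns. With 4 libraries such nearness is a description of levels only.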

How the data were processed

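Per the labels and the study's methods, total RNA was sequenced as stranded, single-end libraries. The authors used Trimmomatic for trimming, HISAT2 2.1.0 for mapping to mm10 and HOMER for counting UCSC known genes on their own strand, and deposited RPKM rounded to 3 decimals for 63759 transcripts. The table's header gives exons as the feature, the methods genes. The length column, also deposited by the authors, holds bases. The labels list hg19 too.

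Transcripts were assigned to GENCODE vM21 genes that held at least 50% of their span on the same strand, which named 57708. Depth is the number of mapped reads that makes every tested low RPKM of transcripts under 600 bases (1126 to 1160 per library) a whole read count, within 0.1. Transcripts with fewer than 10 reads made up 42.2% to 43.4%. A change was called at 1.5-fold, with 0 RPKM set to 0.001 and 0.1 RPKM or more in any library. Intervals of single changes are exact 95% binomial intervals on reads. Those of differences between responses are exact 95% conditional intervals, or log-normal where a gene had at least 3000 reads in 1 library. RPKM with 1 library per condition allowed no test.

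All 8 members are named. Other pathway genes are named when past 1.5-fold and at 1 RPKM or more in any library, and exceptions are marked. Members, lists and rules were chosen with earlier results of these data known. On simulated data, 200 of 200 transcripts raised 4-fold and 924 of 37740 unchanged ones were called for TGFB1 against Ctrl in Hmga2+/+, over 63759 transcripts. The simulation drew Poisson reads with no spread between cultures, raised only transcripts at 1 RPKM or more and called only rises. It gives no error rate for falls, for changed genes under that level or for real cultures. Python 3.11.15, numpy 2.4.6, pandas 2.3.3, scipy 1.17.1 and matplotlib 3.10.9 were used. All 4 sample columns were used.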

Additional observations from a re-analysis of the deposited data

Results flagged for a closer look

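Ptgs1 and Ptgis are listed because their TGFB1 changes had opposite signs in the 2 genotypes. For Ptgs1 Hmga2+/+ MEF had a log2 change of -0.05 and Hmga2-/- MEF one of 0.50, a difference of 0.554 with a counting interval of 0.03 to 1.08. For Ptgis the changes were 0.08 and -0.25, a difference of -0.331 with a counting interval of -1.17 to 0.51. None of these 4 changes passed 1.5-fold, and with 1 library per condition the difference between genotypes was not tested in either gene.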

How the results depend on the processing

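No paired analysis was possible because each condition is represented by a single library, and leaving out a replicate was not possible for the same reason. Of 160 log2 values of members under the alternatives, 152 moved by less than their counting interval, 8 moved further and 0 changed sign. Of 63 counts of members 45 stayed within 1.5 times the reported count, as did 42 of 63 counts of pathway genes. Of 63 shares of all genes 38 did. In Hmga2+/+ MEF 9.39% of all genes fell with a pseudocount of 1 RPKM and 13.2% at 2-fold. Without the filter 19.3% fell, and with 1 RPKM required 17.7%. The response differed between the genotypes for 2.81%, 9.36%, 21.7% and 5.87% of all genes in the same order of settings. In that order, 7.45%, 6.91%, 11.7% and 12.1% of all genes rose in Hmga2+/+ MEF. In Hmga2-/- MEF 8.66%, 7.69%, 12.8% and 13.8% rose and 8.41%, 12.9%, 18.3% and 15.9% fell. In Ctrl 1.28%, 3.2%, 8.42% and 3.02% were higher in Hmga2-/- MEF and 1.26%, 3.81%, 8.79% and 2.76% lower. Under TGFB1 1.63%, 4.15%, 9.35% and 3.9% were higher and 0.984%, 3.78%, 8.24% and 2.79% lower. With a pseudocount of 0.1 RPKM, 1 pathway gene was higher in Hmga2-/- Ctrl, beside 4.39% of all genes. With it, 1 member was higher in Hmga2-/- TGFB1, beside 5.4% of all genes. With a pseudocount of 1 RPKM, which damps genes of low level, 2 pathway genes rose and 0 members and 3 pathway genes fell in Hmga2+/+ MEF, 3 pathway genes fell in Hmga2-/- MEF, 0 pathway genes were higher in Hmga2-/- Ctrl, 1 member and 1 pathway gene were higher and 0 and 0 lower in Hmga2-/- TGFB1, and 0 members, Hpgd included, and 0 pathway genes differed in response. With libraries rescaled, 1 member was higher in Hmga2-/- TGFB1, beside 7.55% of all genes. At 2-fold, 3 pathway genes rose and 1 member fell in Hmga2+/+ MEF, 4 pathway genes fell in Hmga2-/- MEF, 0 pathway genes were higher in Hmga2-/- Ctrl, 0 members and 1 pathway gene were higher and 1 member lower in Hmga2-/- TGFB1, and 1 pathway gene differed in response. Without the low-value filter, which lets in genes of a few reads, 2 members rose in each genotype, 5 pathway genes were higher and 1 member and 1 pathway gene lower in Hmga2-/- Ctrl, 6 pathway genes were higher and 4 lower in Hmga2-/- TGFB1, and 2 members and 7 pathway genes differed in response. With at least 1 RPKM required, 1 member fell in each genotype, 1 pathway gene was higher in Hmga2-/- Ctrl, 1 member was higher and 0 members and 0 pathway genes lower in Hmga2-/- TGFB1, and 0 members and 1 pathway gene differed in response. Taking the transcript of highest mean RPKM moved none of these counts beyond 1.5 times but exchanged pathway genes: Slco2a1 replaced Slco3a1 among those higher in Hmga2-/- Ctrl, left those that fell in Hmga2-/- MEF and joined those that differed in response, and Ptgr2 joined those that fell in Hmga2+/+ MEF. For Hpgd, Ptges and Ptger2, between 1 and 80 reads limit the precision.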
